A study of Mus musculus with 1600 samples.

Results

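The genes described here are 10 genes of the actin cytoskeleton of podocytes: Synpo, Actn4, Inf2, Myh9, Ezr, Slc9a3r2, Arhgap24, Rhpn1, Myo1e and Clic3. They were taken by name as 10 rows of the 45792 gene identifiers in the 2 deposited count tables, and all 10 were found. The values come from glomerular cells of Nos3-/- mice on the C57BL/6 strain, which lack endothelial nitric oxide synthase, caught in wells of the Fluidigm C1 platform (a microfluidic array with a separate chamber for each captured cell). For the diabetes group, streptozotocin, which kills pancreatic beta cells, was given on 5 days from the age of 8 weeks at a daily 50 µg per g of weight. Control littermates were injected with citrate vehicle, and every mouse was 10 weeks old when glomeruli were taken. Both groups carry the Nos3 deletion, so there is no wild-type group. A pool holds cells from 3 mice of the same condition, and the 2 experiments gave 4 pools: control replicates 1 and 2 and diabetes replicates 1 and 2, each numbered by its experiment. P-values below rest on the spread between such pools, estimated with the help of all genes, and not on that between single mice.

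Podocytes are the epithelial cells that wrap the glomerular capillaries with interlocking foot processes, and a cortical and basal actin scaffold holds the shape of these processes. The genes fall into 4 roles. Synaptopodin (Synpo) and alpha-actinin-4 (Actn4) bind and crosslink actin bundles. The formin Inf2, which assembles and severs filaments, the non-muscle myosin heavy chain Myh9 and the membrane-linked class I myosin Myo1e build and move filaments. Arhgap24, a GTPase-activating protein for Rac1 and Cdc42, and rhophilin-1 (Rhpn1) regulate small GTPase signalling. Ezrin (Ezr) and the PDZ adaptor NHERF2 (Slc9a3r2) tie the apical sialoprotein podocalyxin to actin, and Clic3 belongs to the chloride intracellular channel family, another member of which, Clic5, sits in the same apical complex. Variants in the human counterparts of ACTN4, INF2, MYH9, MYO1E and ARHGAP24 are known in focal segmental glomerulosclerosis or related podocyte disease.

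RefSeq's promoter table (GRCm38.p6) held 7 of the 10 genes, all but Synpo, Arhgap24 and Rhpn1. The 250 bases before the start are shown for 4 of them: Clic3 and Myo1e, which in podocyte-like sums stood above every other class sum of at least 5 wells, and Actn4 and Myh9, which did not. Each runs 5′ to 3′ on the gene's strand, and capitals mark matches to the motifs named next.
Clic3, chr2:25456593-25456842 (+ strand): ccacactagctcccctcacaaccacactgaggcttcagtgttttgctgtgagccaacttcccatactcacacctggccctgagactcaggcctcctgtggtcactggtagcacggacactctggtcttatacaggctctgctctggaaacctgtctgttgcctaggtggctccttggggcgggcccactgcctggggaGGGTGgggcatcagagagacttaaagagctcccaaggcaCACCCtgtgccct
Myo1e, chr9:70207100-70207349 (+ strand): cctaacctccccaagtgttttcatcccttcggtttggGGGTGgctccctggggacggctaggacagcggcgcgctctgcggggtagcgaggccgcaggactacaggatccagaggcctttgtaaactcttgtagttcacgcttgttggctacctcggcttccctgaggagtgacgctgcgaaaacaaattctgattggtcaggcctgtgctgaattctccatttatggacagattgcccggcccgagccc
Actn4, chr7:28962333-28962582 (- strand): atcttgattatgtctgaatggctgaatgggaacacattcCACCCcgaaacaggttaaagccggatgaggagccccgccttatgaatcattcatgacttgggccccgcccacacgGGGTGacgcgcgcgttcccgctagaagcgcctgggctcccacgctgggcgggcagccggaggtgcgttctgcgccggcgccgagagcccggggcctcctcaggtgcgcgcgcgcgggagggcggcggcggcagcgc
Myh9, chr15:77842176-77842425 (- strand): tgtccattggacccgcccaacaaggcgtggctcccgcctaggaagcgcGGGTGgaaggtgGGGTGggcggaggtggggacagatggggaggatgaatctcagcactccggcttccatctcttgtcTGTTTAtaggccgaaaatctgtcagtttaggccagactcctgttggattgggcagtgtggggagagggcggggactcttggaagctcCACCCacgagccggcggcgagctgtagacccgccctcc
Windows of 300 bases, from 250 before to 50 after the start, were searched on both strands for 5 short motifs of factor families known in podocytes. The Krüppel-like factor core CACCC was found in 7 of 7 genes, against 57.5% of all 32851 promoter windows. The forkhead motif TAAACA was found in Myh9 (13.4% of all windows) and the E-box CAGCTG in Slc9a3r2 (16.3%). The WT1 motif GCGGGGGCG was found in Inf2 and Slc9a3r2 (2.91%), and the MAF motif TGCTGAC in none of the 7 (4.67%). None of these 4 rarer motifs was found in the windows of Clic3 or Myo1e. Some genes had more than 1 start in the table, and a gene was counted if any of its windows held the motif. A match of letters is a description and no evidence of binding.

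Positions are those of GENCODE M21 on GRCm38, the assembly that the name mm10 stands for. Synpo lies on chromosome 18 from 60593973 to 60660142 (- strand), Actn4 on chromosome 7 from 28893248 to 28962340 (- strand) and Inf2 on chromosome 12 from 112588784 to 112615557 (+ strand). Myh9 and Rhpn1 share chromosome 15, at 77760587 to 77842175 (- strand) and 75704280 to 75715485 (+ strand). Ezr and Slc9a3r2 share chromosome 17, at 6738041 to 6782784 and 24639286 to 24650327 (both - strand). Arhgap24 lies on chromosome 5 from 102481391 to 102897937, Myo1e on chromosome 9 from 70207350 to 70399766 and Clic3 on chromosome 2 from 25456838 to 25458776 (all + strand). All 10 are annotated as protein-coding, and the values are reads over the whole gene. Exons of Actn4 overlap those of Capn12 on the other strand by 316 bases, and exons of Ezr overlap those of Sytl3 by 4 bases. Whether the counting used strand is not given, so reads in these overlaps cannot be assigned. The exons of the other 8 genes overlap no other annotated gene.

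Of 833 wells in which imaging saw 1 cell, 639 were kept, with at least 500 genes and at most 30% mitochondrial reads: 120, 203, 128 and 188 in control replicates 1 and 2 and diabetes replicates 1 and 2. Median reads per kept well were 32222, 219072, 43577 and 176715, so experiment 2 was sequenced several-fold deeper. Xist was at 356 and 442 CPM, the count scaled to the total gene reads of the library or sum, in the control pools and 1.42 and 1.396 in the diabetes pools, and 4 Y-linked genes summed to 0.279 and 0.605 against 154 and 160. The design text describes littermates matched for sex, but these values differ by condition in both experiments, so sex and diabetes cannot be told apart in any comparison of conditions below. Reads were also found in 588 wells imaged as empty, with a median of 2212 and 2397 reads in experiment 1 and 33610 and 32994 in experiment 2 (control and diabetes).

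Cell classes were built from markers without the 10 genes and without 79 further actin genes, which were left out of the clustering, so that their levels did not shape the classes. The podocyte-like class held 63 wells. All 12 podocyte markers were detected in it, and 10 of them stood among its 50 leading genes, with Ptpro, Sema3g and Cdkn1c near the top. By pool it held 23 wells (19.2% of kept wells, 95% exact interval 12.6 to 27.4), 26 wells (12.8%, 8.54 to 18.2), 1 well (0.781%, 0.0198 to 4.28) and 13 wells (6.92%, 3.73 to 11.5). Diabetes replicate 1, with a single podocyte-like well of 40 Synpo reads and 26 Clic3 reads, therefore takes no part in podocyte-like means and tests. The other classes were endothelial-like (304 wells), mesangial-like (122), immune-like (81), smooth muscle or renin cell-like (20) and tubular-like (40), and 9 proliferating wells stayed unnamed. A class's wells were summed within each pool, and levels are CPM of these sums. Levels are compared across classes for the same gene, and not between genes.

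Podocyte-like sums held more of 5 of the 10 genes than the other named classes did. For Synpo, Arhgap24, Rhpn1, Myo1e and Clic3, the lowest of the 3 podocyte-like pools lay above the highest sum of every other named class with at least 5 wells. Of 9800 genes with a mean of at least 10 CPM, 2.12% did the same. Among the named classes Ezr and Inf2 also had their highest mean in podocyte-like sums, but with overlap. The unnamed wells held more Inf2, at 169.8, 175.4 and 359 CPM in sums of 1, 6 and 2 wells (control replicates 1 and 2 and diabetes replicate 2), with 91.6% of the reads of the 6 wells from 1 of them. Among the named classes Actn4 and Myh9 had their highest mean in mesangial-like sums, and Slc9a3r2 in endothelial-like sums.

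**Figure D1:**
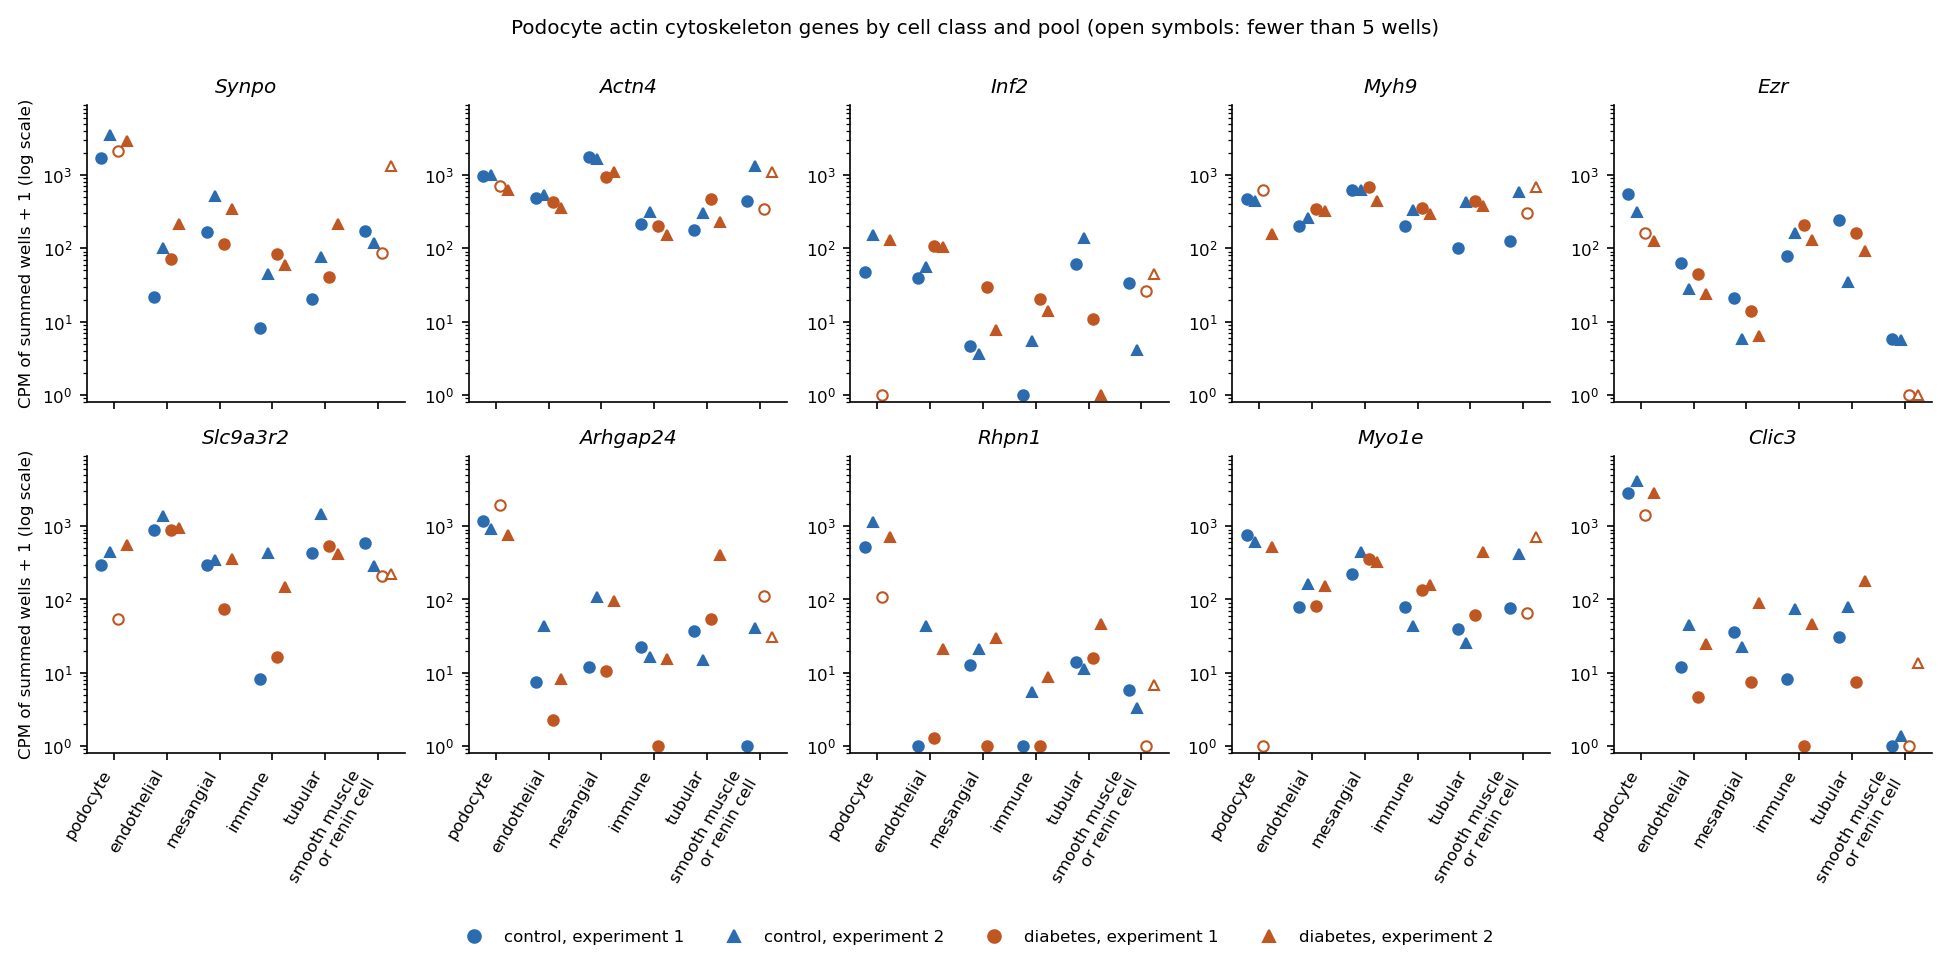
CPM + 1 of each gene in the summed wells of 6 cell classes, on a log scale. Each symbol is 1 pool (blue control, orange diabetes, circles experiment 1, triangles experiment 2), and open symbols hold fewer than 5 wells. Clic3 and Rhpn1 in podocyte-like sums stand apart from every other class, while Actn4 and Myh9 lie at similar heights in several classes.

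Among the actin binders, Synpo was at 1698 and 3499 CPM in podocyte-like sums of control replicates 1 and 2 and at 2918 CPM in diabetes replicate 2, a mean of 2705 ± 919 (SD, n = 3 pools). Mesangial-like sums held 166, 511, 113 and 341 CPM in the 4 pools (283 ± 181, n = 4), and endothelial-like sums 20.9, 99.4, 71.1 and 213 CPM (101 ± 81.5). In both classes the pools of experiment 2 were the higher ones within their condition. Immune-like and tubular-like sums had means of 47.9 ± 31.7 and 86.7 ± 86.7 CPM. A sum of 3 smooth muscle or renin cell-like wells, of diabetes replicate 2, reached 1338 CPM, of which 59.5% came from a single well.

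Actn4, by contrast, was no higher in podocyte-like than in mesangial-like sums. It was at 983, 1009 and 621 CPM in the 3 podocyte-like pools (871 ± 217) and at 1768, 1659, 956 and 1111 CPM in the mesangial-like pools (1373 ± 400). Endothelial-like pools held 483, 540, 424 and 351 CPM (449 ± 81.1), all below the lowest podocyte-like pool. Immune-like and tubular-like means were 220 ± 65.0 and 295 ± 128 CPM. Its paralog Actn1 was low in podocyte-like sums (65.8 ± 43.0 CPM) and higher in mesangial-like ones (145 ± 118), with overlap.

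Of the filament assemblers and motors, Myo1e showed a narrow gap between podocyte-like and other sums. It was at 767, 606 and 520 CPM in the podocyte-like pools (631 ± 126), against 225, 444, 358 and 324 in mesangial-like pools (338 ± 90.6) and 77.1, 161, 79.7 and 151 in endothelial-like pools (117 ± 44.9). The highest other sum with at least 5 wells was 445 CPM, in the tubular-like wells of diabetes replicate 2, where 72.4% came from 1 well. Smooth muscle or renin cell-like wells of diabetes replicate 2, 3 in number, were at 711 CPM.

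Inf2 was at 46.02, 150 and 129 CPM in the 3 podocyte-like pools (109 ± 55.1). Endothelial-like pools overlapped with it, at 38.5, 54.7, 106 and 103.1 CPM (75.5 ± 34.1). Mesangial-like pools lay below, at 3.61, 2.58, 28.99 and 6.77 CPM, from 4, 37.2, 18 and 38 expected reads. Myh9 was spread over every class, at 475, 447 and 157 CPM in podocyte-like pools (360 ± 176), 622, 625, 694 and 443 in mesangial-like pools (596 ± 107) and 201, 258, 343 and 318 in endothelial-like pools (280 ± 63.5). Immune-like and tubular-like means of 293 ± 67.3 and 338 ± 160 CPM were within the same range.

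Both signalling regulators were far higher in podocyte-like wells. Arhgap24 was at 1163, 903 and 754 CPM in the 3 pools (940 ± 207), against 6.52, 42.9, 1.26 and 7.23 CPM in endothelial-like pools and 10.8, 107, 9.66 and 93.7 in mesangial-like pools. The highest other sum was 397.5 CPM, in tubular-like wells of diabetes replicate 2. Rhpn1 was at 518, 1152 and 720 CPM in podocyte-like pools (797 ± 324) and no higher than 44.9 CPM in any other sum of at least 5 wells. In experiment 1 it had 0 reads in 44 control and 1 read in 73 diabetes endothelial-like wells, where 3 reads would correspond to 1.96 and 0.908 CPM. In experiment 2 the same class held 42.3 and 19.9 CPM.

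Of the 3 genes of the last group, Clic3 had the widest gap between podocyte-like and other sums. It was at 2811, 4092 and 2844 CPM in podocyte-like pools (3249 ± 730), against 11.1, 43.9, 3.63 and 23.8 CPM in endothelial-like pools and 35.2, 21.6, 6.44 and 89.1 in mesangial-like pools. Ezr was at 559, 314 and 125 CPM in podocyte-like pools (333 ± 217), with the diabetes pool the lowest. Immune-like pools at 78.3, 161, 205 and 128 CPM (143 ± 53.4) and tubular-like pools at 242, 33.3, 163 and 91.2 CPM (132 ± 90.2) overlapped with it. Mesangial-like pools held 19.9, 4.73, 12.9 and 5.30 CPM, the lowest mean among the classes with at least 5 wells in all 4 pools. Smooth muscle or renin cell-like sums, of 3 to 7 wells, were lower still, at 4.74 and 4.57 CPM in the control pools and with no read in the diabetes pools. Slc9a3r2 was highest in endothelial-like pools, at 896, 1374, 880 and 939 CPM (1022 ± 236), and lower in every podocyte-like pool, at 294, 447 and 560 CPM (434 ± 134). A tubular-like sum of 1458 CPM, in control replicate 2, was its highest value.

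Podocyte-like sums were then tested against endothelial-like and mesangial-like sums in 1 model over all genes (edgeR quasi-likelihood test, pool as a block, Benjamini-Hochberg adjustment over 12112 genes). Against endothelial-like sums 6 of the 10 genes were higher and 0 lower at an adjusted p under 0.05, where 2.82% of all genes were called higher and 3.01% lower. The log2 difference was 7.22 for Clic3 (SE 0.60; adjusted p = 0.000137 in edgeR), 6.49 for Arhgap24 (SE 0.79), 5.92 for Rhpn1 (SE 0.94), 4.96 for Synpo (SE 0.51), 3.30 for Ezr (SE 0.54) and 2.62 for Myo1e (SE 0.40). Their edgeR adjusted p-values were at most 0.00445. Actn4 differed by 1.02 (SE 0.29, edgeR adjusted p = 0.0622), Inf2 by 1.14 (SE 0.70) and Myh9 by 0.52 (SE 0.42), none past the threshold. Slc9a3r2 went the other way, at -1.38 (SE 0.44, edgeR adjusted p = 0.0946). The median over the 10 genes was 2.96, against -0.40 over all genes tested.

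Against mesangial-like sums 6 of the 10 genes were again higher and 0 lower, where 1.91% of all genes were called higher and 2.80% lower. The 6 were Clic3 (6.27 on the log2 scale, SE 0.58), Rhpn1 (5.49, SE 0.90), Ezr (5.26, SE 0.59), Inf2 (4.52, SE 0.85), Arhgap24 (4.24, SE 0.75) and Synpo (3.36, SE 0.46), with edgeR adjusted p-values of at most 0.0106. Myo1e (1.05, SE 0.40), Slc9a3r2 (0.72, SE 0.40), Myh9 (-0.56, SE 0.42) and Actn4 (-0.59, SE 0.29) did not pass. Clic3, Rhpn1, Ezr, Arhgap24 and Synpo thus passed in both comparisons, Myo1e in the endothelial-like comparison and Inf2 in the mesangial-like one. The call for Ezr against endothelial-like sums was lost without control replicate 1 (edgeR adjusted p = 0.0526) or control replicate 2 (0.0720), and that for Inf2 against mesangial-like sums without control replicate 2 (0.142). Actn4 against endothelial-like sums passed with relative log expression scaling (edgeR adjusted p = 0.0321) and in DESeq2 (adjusted p = 0.0127). Slc9a3r2 was called lower against endothelial-like sums without a filter on low counts (edgeR adjusted p = 0.0366) and in thinned wells (0.0299).

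**Figure D2:**
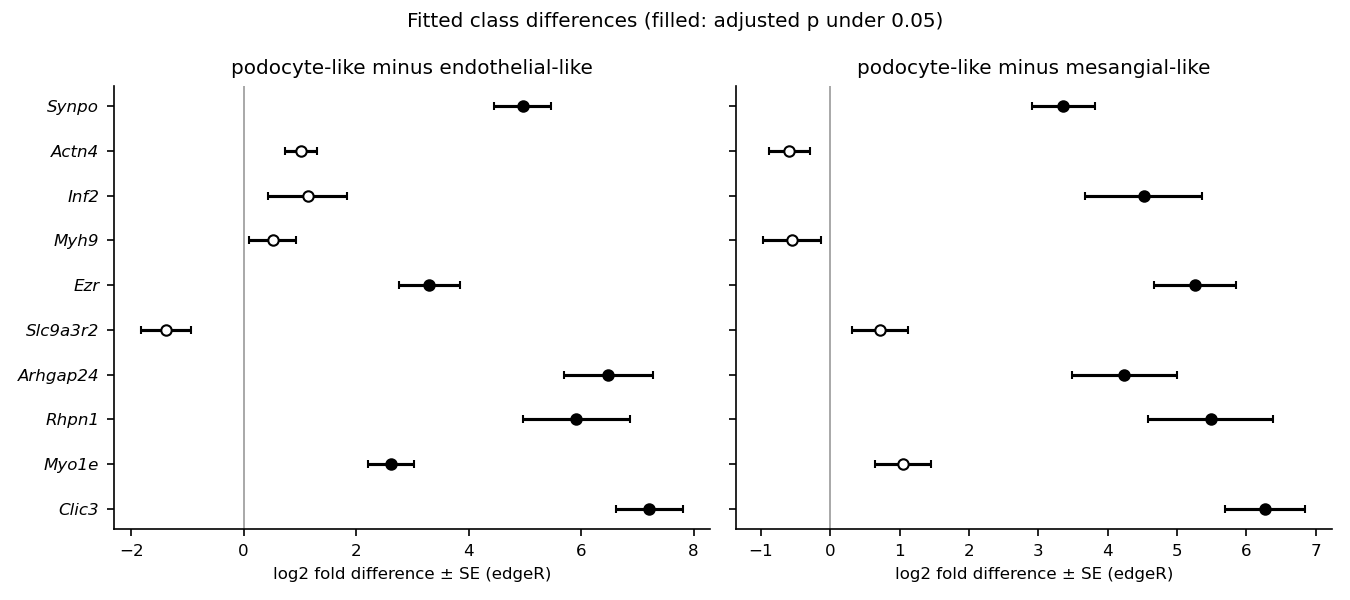
Fitted log2 difference (edgeR) of podocyte-like minus endothelial-like sums (left) and podocyte-like minus mesangial-like sums (right), with bars of 1 SE and filled points at an adjusted p under 0.05. In each panel 6 genes are filled, and Actn4 and Myh9 lie near 0 or below it on the right.

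The same contrast was seen well by well. Each well was thinned to 10000 reads, which left out shallower wells of experiment 1. A podocyte-like well then held a read of a median of 8 of the 10 genes in each of the 3 pools (lowest 2, highest 10). Endothelial-like wells held a median of 3, 3, 3 and 4 in the 4 pools, and mesangial-like wells 3, 4, 2.5 and 4. Before thinning the medians were 9, 9.5 and 9 in podocyte-like wells and 3.5, 7, 4 and 6 in endothelial-like wells, so the deeper experiment 2 narrowed the gap. Rhpn1 had a read in 86.4%, 80.8% and 84.6% of thinned podocyte-like wells, and in 0%, 9.52%, 0% and 9.71% of endothelial-like wells. Unthinned, the shares in podocyte-like wells were 82.6% (95% exact interval 61.2 to 95.1), 100% (86.8 to 100) and 92.3% (64.0 to 99.8), and those in endothelial-like wells 0% (0 to 8.04), 45.2% (34.3 to 56.5), 1.37% (0.0347 to 7.40) and 32.04% (23.2 to 42.0). Intervals cover counting error in wells only.

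Wells imaged as empty also held these genes. After thinning, a median of 7 of the 10 genes had a read in the 17 empty wells of control replicate 1 that were deep enough, 6 in 105 of control replicate 2, 4 in 14 of diabetes replicate 1 and 5 in 92 of diabetes replicate 2. Clic3 was at 592, 500, 21.7 and 202 CPM in the sums of empty wells, against 738, 599, 6.84 and 203 CPM in all kept wells of the same pools. In endothelial-like wells of experiment 2 Clic3 had a read in 56.0% and 46.6% of wells, and 1 well gave 59.0% and 41.9% of the Rhpn1 reads. The part of free RNA in these reads was not tested.

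**Figure D3:**
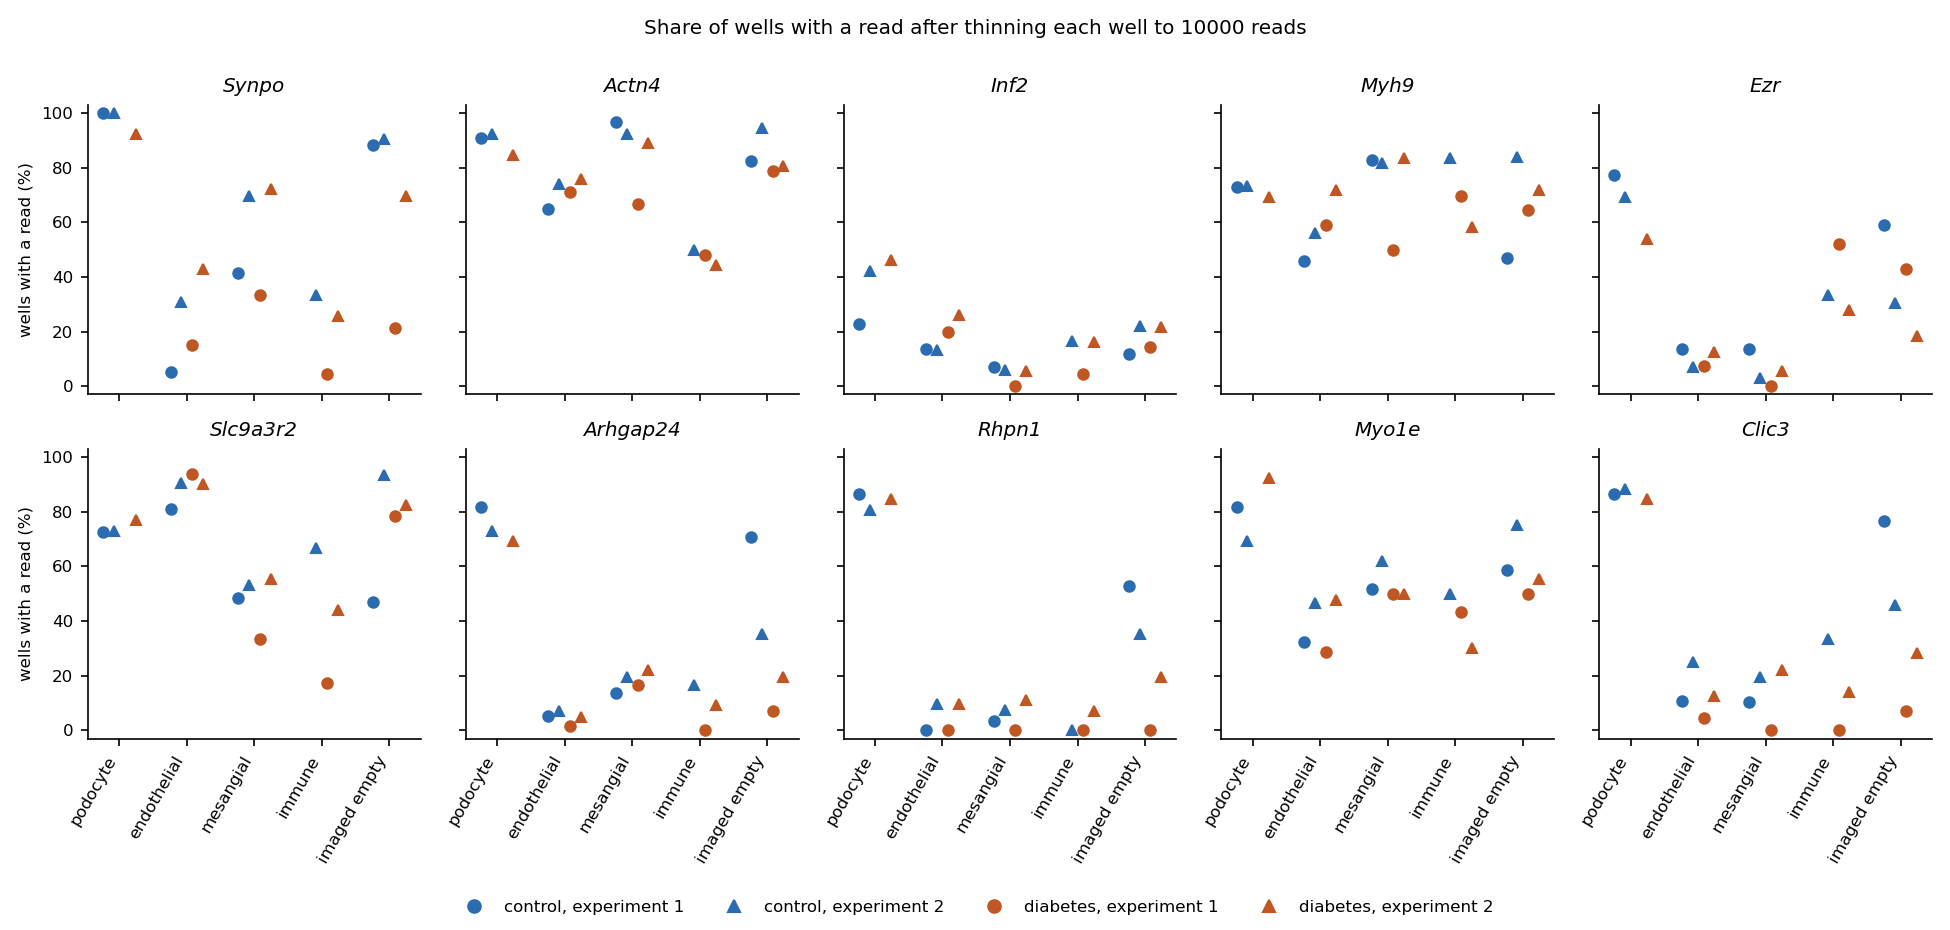
Percent of wells with a read of each gene after thinning to 10000 reads, by class and pool (at least 5 thinned wells), with wells imaged as empty at the right. Rhpn1 is above 80% in podocyte-like pools and below 12% in endothelial-like and mesangial-like pools, while empty wells of control replicate 1 reach 52.9%.

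Within the podocyte-like class, single wells differed widely. Clic3 ranged from 0 to 5627 CPM in the 23 wells of control replicate 1 (median 2598), from 2.85 to 14640 in the 26 of control replicate 2 (median 2351) and from 0 to 6764 in the 13 of diabetes replicate 2 (median 1503). Synpo ranged from 0 to 3229 (median 1389), from 261 to 8805 (median 2971) and from 43.1 to 6329 (median 1691) in the same pools. Inf2 had no read in 14 of 23, 8 of 26 and 3 of 13 wells. Actn4 had a read in every one of these wells, with medians of 1044, 861 and 413 CPM. In diabetes replicate 2, 1 well gave 61.5% of the Clic3 reads and 47.8% of the Myh9 reads of the sum. Over 61 thinned wells centred within pool, Pearson's r between pairs of the 10 genes ran from -0.20 to 0.35 with a median of 0.059 over 45 pairs. The highest was between Arhgap24 and Clic3 (0.35) and the next between Synpo and Rhpn1 (0.30). These wells share pools and sparse counts, and r is given as a description.

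**Figure D4:**
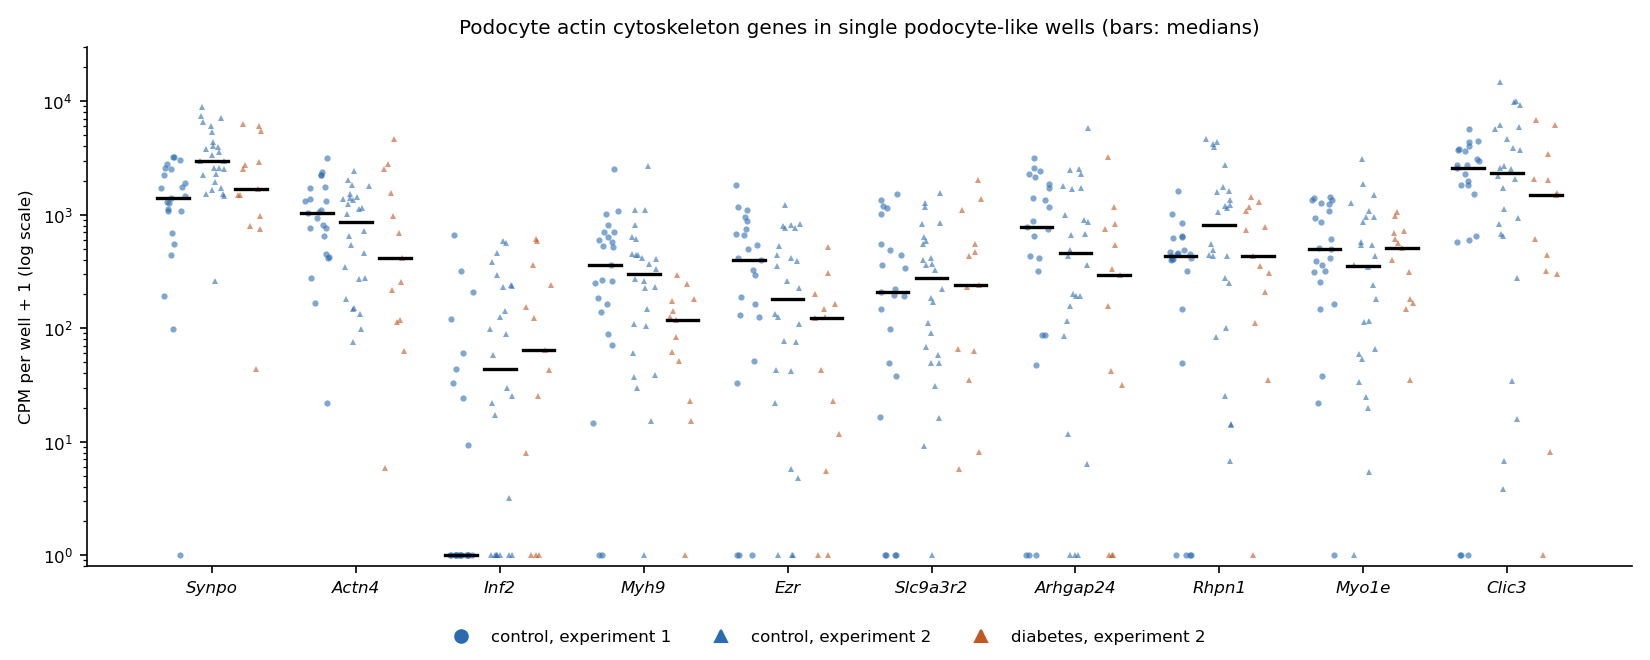
CPM + 1 of each gene in single podocyte-like wells on a log scale, for the 3 pools with more than 1 such well, with bars at the medians. Wells without a read lie at 1 on the axis. Synpo, Actn4 and Clic3 are present in nearly every well, and Inf2 is at 1 in 14 of 23 wells of control replicate 1.

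Over 21 sums of at least 5 wells, likeness to each gene was measured by Pearson's r of log2(CPM + 1) among 9706 genes with a mean of at least 10 CPM. The sums share pools and depth, and no test was made. The genes most like Rhpn1 included the slit-diaphragm gene Nphs1 (0.93) and the guidance receptor Robo2 (0.93). Clic3 was most like Arhgap28 (0.94), Nphs1 (0.93) and the cell-cycle inhibitor Cdkn1c (0.93), and Arhgap24 was most like Kank1 (0.89), Arhgap28 (0.88) and Cdkn1c (0.87). Synpo was most like Gpc1 (0.88), the intermediate filament gene Nes (0.88) and Wt1os (0.86), and Myo1e like the integrin subunit Itgb5 (0.86), the formin Daam2 (0.86) and Ptpn21 (0.82). The other 5 genes had no podocyte marker among their 3 nearest. Actn4 was most like Bcar3 (0.88), Nfic (0.86) and Fads3 (0.86), and Slc9a3r2 like Cemip2 (0.90), Sema3f (0.88) and Meis2 (0.88). Myh9 was most like Fam98b (0.84), Chpf (0.84) and Mettl9 (0.83), Ezr like Skap2 (0.77) and Tfrc (0.76), and Inf2 like Elovl5 (0.76), Osbpl9 (0.76) and Lyrm9 (0.75). Among the 10 genes themselves the closest pair was Rhpn1 and Clic3 (0.88), followed by Arhgap24 with Clic3 (0.84) and with Rhpn1 (0.83). Actn4 and Ezr had the lowest r (-0.47).

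The wider actin machinery was described with 79 other genes in 6 groups. Against endothelial-like sums 13 of the 75 tested were higher and 7 lower in podocyte-like sums (2.82% and 3.01% of all genes). By smallest adjusted p these were the actin monomer binder Tmsb4x (3.35 on the log2 scale, SE 0.35), the kinase Pak1 (6.35, SE 0.67), the scaffold Magi2 (7.30, SE 0.88), the myosin Myo1d (3.63, SE 0.44) and palladin, Palld (5.43, SE 0.80). Their edgeR adjusted p-values were at most 0.00256. Of the 7 tested genes of the apical group, 3 were lower (Msn, Clic4 and Rdx) and podocalyxin, Podxl, was higher (2.25, SE 0.52). Of 12 myosins and tropomyosins 4 were higher and 0 lower, of 15 crosslinkers and scaffolds 4 higher and 1 lower, and of 17 small GTPases, regulators and effectors 1 higher and 3 lower. Of 10 monomer, severing and capping genes 2 were higher, and of 14 nucleation and elongation genes 1. The median over the 75 was 0.061, against -0.40 over all genes.

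Against mesangial-like sums 7 of the 75 were higher and 10 lower (1.91% and 2.80% of all genes). Podxl (5.31 on the log2 scale, SE 0.51), Pak1 (6.27, SE 0.62) and Clic5 (5.55, SE 0.68) were higher, and filamin A, Flna (-3.85, SE 0.41), and vinculin, Vcl (-3.999, SE 0.49), were lower, with edgeR adjusted p-values of at most 0.00103. Crosslinkers and scaffolds had 2 higher and 4 lower of 15, myosins and tropomyosins 1 higher and 2 lower of 12, and the apical group 2 higher and 2 lower of 7. The small GTPase group had 2 higher and 1 lower of 17, nucleation and elongation 0 higher and 1 lower of 14, and no monomer, severing or capping gene passed. The median over the 75 was -0.32, against -0.15 over all genes. Cd2ap, an adaptor that links the slit diaphragm to actin, was higher in both comparisons (2.41, SE 0.43, and 2.15, SE 0.40), but lost the call in both without control replicate 1, control replicate 2 or diabetes replicate 2, and with clustering at resolution 1.2 (edgeR adjusted p = 0.0612 and 0.0590). Podxl lost its call against endothelial-like sums without each of the same 3 pools (edgeR adjusted p between 0.0902 and 0.191), and with the 10 genes and the actin list in the clustering (0.0668). Clic5 (1.61, SE 0.69), Slc9a3r1 (2.05, SE 0.87), Actn1 (1.58, SE 0.73) and Myh10 (0.23, SE 1.602) did not pass against endothelial-like sums, nor did Slc9a3r1 (1.15, SE 0.82), Actn1 (-0.55, SE 0.75) and Myh10 (-3.28, SE 1.54) against mesangial-like sums. Against endothelial-like sums Slc9a3r1 passed in DESeq2 (adjusted p = 0.0176) and Clic5 without diabetes replicate 1 (edgeR adjusted p = 0.00363). Clic5 was abundant in endothelial-like pools too (568 ± 124 CPM, n = 4, against 1962 ± 690, n = 3, in podocyte-like pools).

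Diabetes was compared with control within each class, with the experiment as a block. Each of these fits left 1 residual degree of freedom, and edgeR drew a gene's spread toward that over all genes. The weight of all genes, as prior degrees of freedom, was 6.63 in endothelial-like, 9.01 in mesangial-like and infinite in immune-like sums. With an infinite prior a gene's own spread between pools has no weight. None of the 10 genes passed in any class. In endothelial-like sums edgeR called 1 of 12530 genes (0.00798%), with 514 genes at an unadjusted p under 0.05. In mesangial-like sums it called 2 of 10580 (0.0189%, with 421 unadjusted), and in immune-like sums 4 of 8481 (0.0472%, with 318 unadjusted), where 9 of the 10 genes, all but Rhpn1, could be tested. DESeq2 also called 0 of the 10 genes in each class. Of the 10, 1 had an unadjusted p under 0.05 in endothelial-like sums and 0 in the other classes.

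In endothelial-like sums Synpo was at 20.9 and 71.1 CPM in control and diabetes of experiment 1 and at 99.4 and 213 CPM in those of experiment 2. It was higher in diabetes in both experiments, but the pools overlapped across experiments. The fitted log2 difference was 1.43 (SE 0.49, unadjusted edgeR p = 0.0197, adjusted p = 1.00), and a single well gave 46.9% of its reads in control replicate 1. The value was 0.47 without control replicate 1, 2.93 without control replicate 2 and 0.071 without diabetes replicate 2. Inf2, at 38.5 and 54.7 CPM in control and 106 and 103.1 CPM in diabetes, and Myh9, at 201 and 258 against 343 and 318 CPM, were higher in both diabetes pools than in both control pools. Of 8827 genes with a mean of at least 10 CPM, 15.0% were placed likewise. Their fitted differences were 1.195 (SE 0.54) and 0.55 (SE 0.34), both with an edgeR adjusted p of 1.00. Actn4 was lower in both diabetes pools (424 and 351 against 483 and 540 CPM), as were 14.7% of genes, with a fitted difference of -0.39 (SE 0.30, edgeR adjusted p = 1.00). Arhgap24 had the widest fitted difference, -2.49 (SE 1.38, edgeR adjusted p = 1.00), and was lower in diabetes within each experiment (1.26 against 6.52 and 7.23 against 42.9 CPM), with 63.4% of its reads in control replicate 2 from 1 well. Clic3 was also lower within each experiment (3.63 against 11.1 and 23.8 against 43.9 CPM), with a fitted difference of -1.21 (SE 1.12). Slc9a3r2 differed by -0.28 (SE 0.27).

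In mesangial-like sums Actn4 was again lower in both diabetes pools, at 956 and 1111 against 1768 and 1659 CPM. Of 9059 genes, 20.1% were placed likewise, and the fitted difference was -0.66 (SE 0.35, edgeR adjusted p = 1.00). In diabetes replicate 1 this class held 7 wells, 1 of which gave 46.4% of the Actn4 reads. Inf2 was higher in both diabetes pools (28.99 and 6.77 against 3.61 and 2.58 CPM, 13.3% of genes likewise), with a difference of 2.24 (SE 2.38), but 83.3% of its 18 reads in diabetes replicate 1 came from 1 well. Synpo was lower in diabetes within each experiment (113 against 166 and 341 against 511 CPM), with a difference of -0.50 (SE 0.53, edgeR adjusted p = 1.00). This is the other direction from endothelial-like sums, and the difference between the classes was not tested. Without control replicate 2 or diabetes replicate 1 the mesangial-like value changed sign.

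In immune-like sums, of which the control pools held 5 and 6 wells, the 9 fitted differences ran from -2.74 to 2.61 on the log2 scale with SEs from 1.21 to 3.09. Synpo and Myo1e were higher in both diabetes pools than in both control pools (27.7% of 8046 genes with a mean of at least 10 CPM likewise), and Actn4 and Arhgap24 were lower (8.03%). Myo1e had 78.3 and 42.4 CPM in the control pools against 134 and 158 CPM in the diabetes pools, and Actn4 had 214 and 309 against 202 and 154 CPM. Arhgap24 had 21.4 and 15.3 against 0 and 14.4 CPM, and the value of control replicate 1 came from 3 reads, which is the floor. For Synpo, 98.8% of the reads in diabetes replicate 1 came from 1 of 27 wells. 

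**Figure D5:**
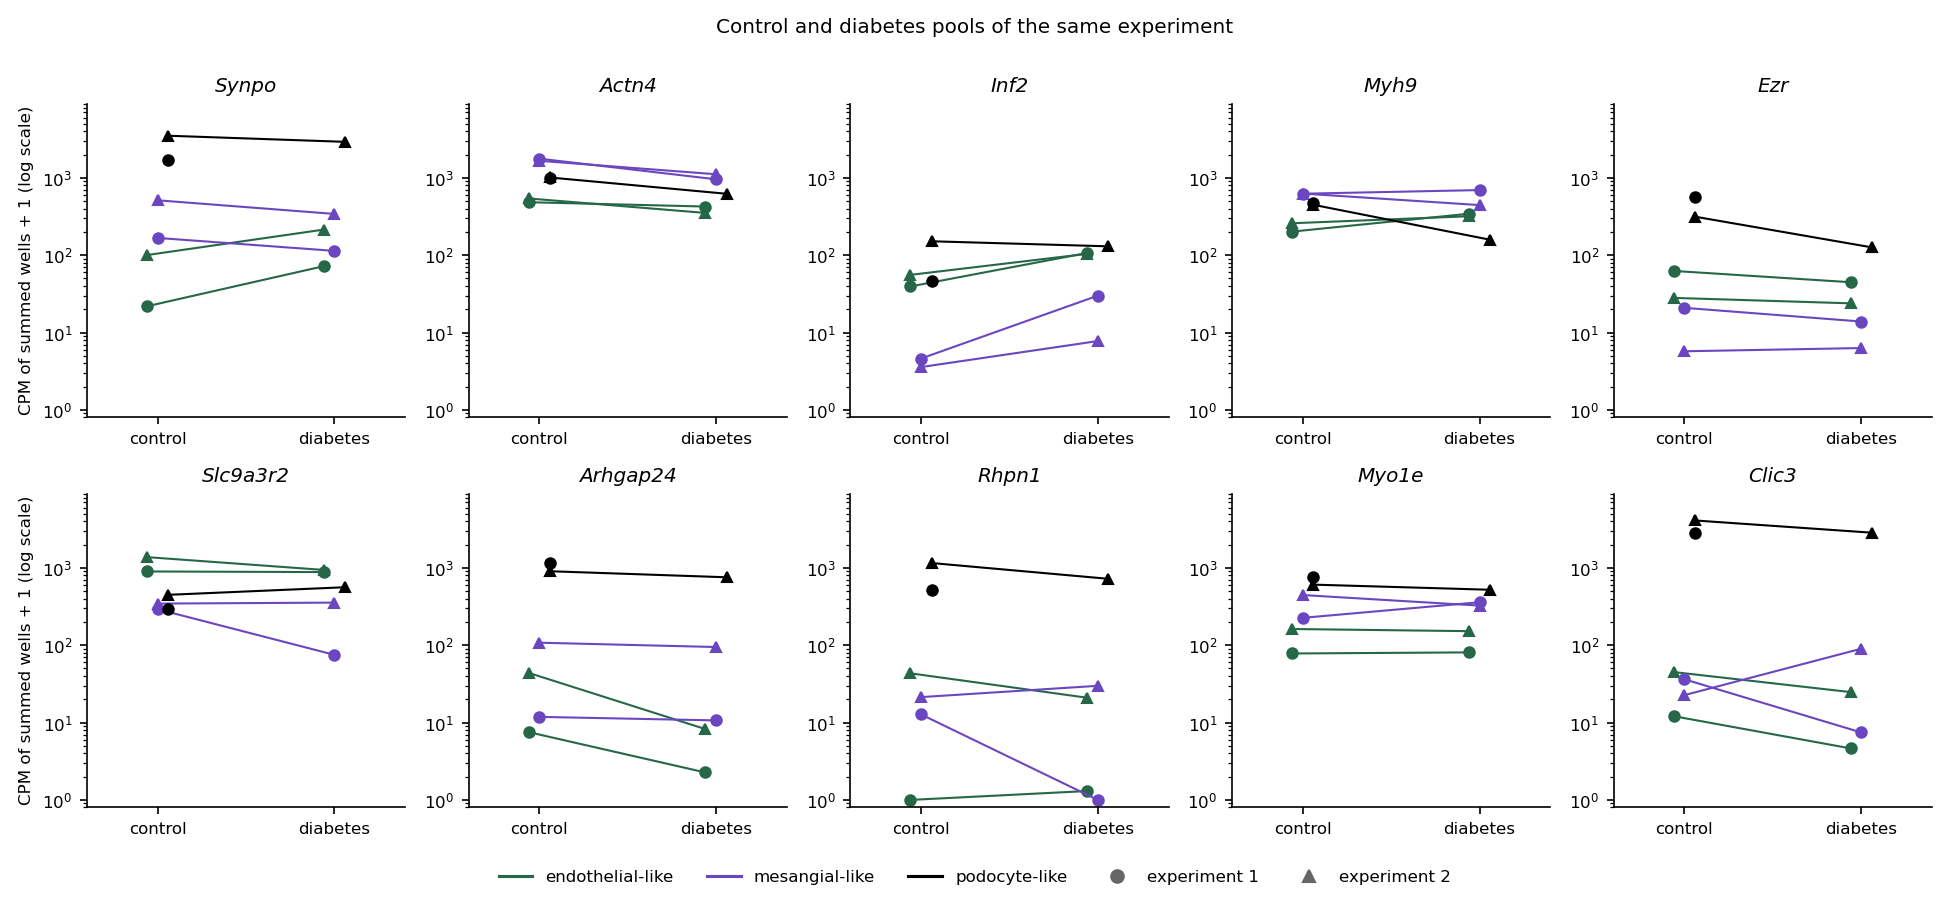
CPM + 1 of each gene on a log scale in control and diabetes pools, joined within an experiment, for endothelial-like (green), mesangial-like (purple) and podocyte-like (black) sums. The podocyte-like sum of diabetes replicate 1 holds 1 well and is not drawn. Synpo is higher in diabetes along the green lines and lower along the purple ones, and Actn4 is lower along all lines drawn, with no difference past the adjusted threshold.

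The planned comparison in podocyte-like sums needed at least 2 wells in each pool and could not be made. In its place control replicates 1 and 2 were set against diabetes replicate 2 alone, without a block, a choice made after the numbers of wells were known. The diabetes group then holds 1 pool, which is assumed to vary like the control pools, and the fit has 1 residual degree of freedom. Its prior was infinite too, so a gene's own spread between pools had no weight. None of the 10 genes passed (edgeR adjusted p between 0.707 and 0.981), where 36 of 10825 genes were called (0.333%) and 841 had an unadjusted p under 0.05. DESeq2 also called 0 of the 10. Ezr stood at 559 and 314 CPM in the control pools against 125 CPM in the diabetes pool, a difference of -1.64 (SE 0.94, edgeR adjusted p = 0.707). Myh9 was at 475 and 447 against 157 CPM, a difference of -1.43 (SE 0.91, edgeR adjusted p = 0.751). Actn4 was also below both control pools (621 against 983 and 1009 CPM), and so were Arhgap24 and Myo1e, which makes 5 of the 10 genes. Slc9a3r2 was above both (560 against 294 and 447 CPM), and the other 4 lay between. Of 8172 genes with a mean of at least 10 CPM in these pools, 38.8% lay below both control pools and 31% above both. Synpo, at 2918 CPM, lay between the control pools (0.25, SE 0.69).

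Of the 79 other actin genes, 0 passed in endothelial-like (74 tested), mesangial-like (75) and immune-like sums (68), and 1 of 73 passed in podocyte-like sums. That gene was Myh10, the non-muscle myosin heavy chain paralog of Myh9, at 0.408 and 9.41 CPM in control and 223.5 CPM in diabetes replicate 2. A single well gave 94.7% of its reads in the diabetes pool, and the reads of control replicate 1 were under the 3 reads set as the floor. The fitted log2 difference was 5.44 (SE 1.36; adjusted p = 0.0255 in edgeR). It did not pass without a filter on low counts (edgeR adjusted p = 0.102), with mitochondrial reads of at most 15% (0.892, difference 1.59, with 3 diabetes wells left), with the 10 genes and the actin list in the clustering (0.0929) or with diabetes replicate 1 and the replicate block (1.00). Myh10 was at 366 ± 113 CPM (n = 4) in mesangial-like sums, and the part of mesangial RNA in that well was not tested. The medians of the 10 genes were -0.31 in endothelial-like, -0.12 in mesangial-like, 0.43 in immune-like and -0.22 in podocyte-like sums, against 0.076, -0.15, 0.91 and -0.43 over all genes tested.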

How the data were processed

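Per the labels, single glomerular cells were caught on Fluidigm C1 arrays of 800 wells per experiment. The authors deposited expected counts per gene and well, which need not be whole numbers (74.1% and 79.3% of values above 0 were whole in experiments 1 and 2). The submitters' processing notes name featureCounts 1.5.1, STAR 2.4.2a, cutadapt 1.11 and BWA 0.7.17-r1188 and build mm10. The sources used here give neither their roles nor the annotation release, the use of strand or the splitting of shared reads. No molecular identifiers were counted. Of 45792 identifiers, 45229 matched GENCODE M21 without their version.

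Wells with 1 cell imaged, at least 500 genes and at most 30% mitochondrial reads were clustered in scanpy 1.11.5 (2000 variable genes scaled within experiment, 15 components, 15 neighbours, Leiden resolution 0.8). A cluster was named if at least 3 markers of a type were in 25% of its wells, that type led among its 50 leading genes, and also among its top 10. These limits were set with the data at hand. Wells with 2 cells imaged were left out and no doublet caller was run. Counts of a class were summed per pool, rounded and tested with edgeR 4.0.16 in R 4.3.3 (quasi-likelihood, robust, TMM, filterByExpr), with DESeq2 1.42.0 as an alternative. Class tests had the pool as a block, and condition tests the experiment, since the titles give 1 control and 1 diabetes pool per experiment. A class entered a condition test with at least 5 wells in every pool, and the podocyte-like class with at least 2, a limit that 1 pool missed. Fits were tested on simulated counts. Of log2 changes of 2 between conditions, 68% were recovered in endothelial-like, 65% in mesangial-like, 50.5% in immune-like and 24% in podocyte-like sums. Of changes of 4, 100% were recovered in the first 3 classes and 94% in podocyte-like sums. Between classes, 96% (endothelial-like) and 95% (mesangial-like) of changes of 2 were recovered. The simulated condition fits gave 8, 10 and 4 false calls in endothelial-like, mesangial-like and immune-like sums. They held about 100 changed genes of each size, which eases the adjusted threshold, while the real fits called 1, 2 and 4 genes. SEs of the 10 genes reached 1.68, 3.00 and 3.09 in these classes, so the shares recovered do not give the power for these genes. All 10 genes were named by rule, and of the other actin genes up to 5 of smallest adjusted p per comparison plus 6 partners or paralogs. The genes, lists and markers were chosen with earlier results of these data known.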

Additional observations from a re-analysis of the deposited data

Results flagged for a closer look

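The difference between diabetes and control for Synpo pointed in opposite directions in 2 classes: in both experiments it was higher in diabetes in endothelial-like sums and lower in mesangial-like sums. The mean log2 difference was 1.98 higher in endothelial-like than in mesangial-like sums, and this difference between the classes was not tested. With a pool left out, the fitted value in endothelial-like sums ran from 0.071 to 2.93, and the one in mesangial-like sums changed sign. Wells with 2 cells imaged were in no comparison. Synpo had a read in 58 of the 98 such wells (59.2%), against 47.6% of 588 wells imaged as empty. Clic3 had one in 35 of 98 (35.7%), against 31.97% of the empty wells. These shares mix the pools and were not matched for depth. Within control replicate 1 the shares were 58.3% against 37.95% for Synpo and 50.0% against 34.4% for Clic3. In control replicate 2 and diabetes replicates 1 and 2 Synpo was less frequent than in empty wells (89.7%, 4.35% and 62.5% against 96.4%, 9.78% and 82.65%). So was Clic3 (46.15%, 4.348% and 41.67% against 63.1%, 5.435% and 41.84%).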

How the results depend on the processing

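The number of the 10 genes called stayed within 1.5 times its value under every alternative run: between 5 and 7 against endothelial-like sums, 5 or 6 against mesangial-like sums, and 0 in every comparison of conditions. In each of 4 settings of filter and clustering 7 of the 10 genes had their highest mean in podocyte-like sums. Signs changed in 4 single values. Synpo in mesangial-like sums moved between -1.68 and 0.65 when a pool was left out, and in endothelial-like sums between 0.071 and 2.93. Synpo in podocyte-like sums was at -0.65 with diabetes replicate 1 and the replicate block. Myh10 against endothelial-like sums was at -1.76 with mitochondrial reads of at most 15% and between -2.60 and 1.86 when a pool was left out, and Actn1 against mesangial-like sums was at 0.034 with clustering at resolution 1.2. The cause was not tested. Without the replicate block, Synpo in endothelial-like sums differed by 1.23 in place of 1.43, and the block changed no call among the 10 genes.

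Counts over all genes moved more. Against endothelial-like sums they went from 706 to between 356 (the 10 genes and the actin list in the clustering) and 2369 (DESeq2), and to between 200 and 612 with a pool left out. Against mesangial-like sums they went from 570 to between 399 (resolution 1.2) and 2077 (DESeq2), and to between 171 and 503. For diabetes they went from 1 to between 0 and 81 in endothelial-like sums (11 to 109 with a pool left out), from 2 to between 0 and 58 in mesangial-like sums (4 to 183), from 4 to between 0 and 14 in immune-like sums (0 to 337), and from 36 to between 0 and 257 in podocyte-like sums. No pool could be left out of the last, which holds 3. Some alternatives left fewer than 5 wells in a pool and were not run: resolution 1.2 and the 10 genes in the clustering for mesangial-like sums, and mitochondrial reads of at most 15% and thinned wells for immune-like sums. When a pool is left out of a condition test, the remaining pool of its group is assumed to vary like the others. Rhpn1 and Arhgap24 in endothelial-like sums and Inf2 in mesangial-like sums held few reads in experiment 1. The part of depth in this was not tested.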
